A study of Rattus norvegicus with 2 samples.

Results

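The chromatin remodelers and histone-modifying enzymes described here are the genes whose symbols in the deposited table belong to the families Hdac, Chd, Smarc, Kdm, Brd, Ezh, Dnmt and Tet. There are 66 of them among the 17455 genes of the table. They were measured by RNA sequencing in OPCs (oligodendrocyte precursor cells) of the rat, which divide and give rise to the cells that make central myelin. The cells, labelled wild type, were transfected by the Lonza kit with Slit1, which encodes a secreted ligand of the Robo receptors, or with vector, and there was 1 library in each group. The question put by the study is what Slit1 overexpression does to gene expression while OPCs differentiate. Animal age, cell purification, pooling of cultures and time after transfection were not given in the sources used here.

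These enzymes set how tightly DNA is packed. Histone deacetylases (HDACs) remove acetyl groups from lysines, lysine demethylases (KDMs) remove methyl groups, EZH enzymes add methyl groups to histone H3 within the Polycomb repressive complex, and bromodomain (BRD) proteins read acetylated lysine. The CHD proteins and the SMARC proteins, which include the subunits of the BAF complex, move or evict nucleosomes with energy from ATP. DNMT enzymes methylate cytosine in CpG dinucleotides and TET enzymes oxidise that mark. In mice several of them, among them Hdac1 with Hdac2, Smarca4 and Chd7, are needed for OPCs to become oligodendrocytes.

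The libraries held 18998770 estimated counts in Slit1 and 18817462 in vector, and the 66 genes took 0.577% of the counts in Slit1 and 0.557% in vector. Slit1 itself measured 229.7 TPM (a transcript level per length, scaled to an equal total in each library) in the Slit1 library and 1.70 TPM in the vector library. All 7 OPC markers were present and summed to 2085 TPM in Slit1 and 2047 TPM in vector. Of these 7, 2 were higher past 1.5-fold, Sox10 (218 TPM in Slit1 and 71.4 TPM in vector) and Gpr17 (263 TPM in Slit1 and 109.8 TPM in vector), and 0 were lower. Ptprz1 lay below 0 (688 TPM in Slit1 and 914 TPM in vector), and Pdgfra measured 41.4 TPM in Slit1 and 40.25 TPM in vector. Astrocyte markers were also abundant: 7 of 7 were present and summed to 9358 TPM in Slit1 and 8276 TPM in vector. Most of that sum was Gfap, at 6130 TPM in Slit1 and 4694 TPM in vector, and the markers differed in direction. Of the 7, 4 lay above 0. Past 1.5-fold, 0 were higher and 2 were lower, Slc1a2 (94.1 TPM in Slit1 and 215.4 TPM in vector) and Gja1 (295.7 TPM in Slit1 and 506 TPM in vector). The 7 neuronal markers summed to 63.7 TPM in Slit1 and 55.0 TPM in vector, most of it Tubb3 (46.5 TPM in Slit1 and 33.6 TPM in vector). Of the 7, 2 lay above 0 and 1 was lower past 1.5-fold, and the median difference of the 6 tested was -0.27. The 5 microglial markers in the table summed to 1.42 TPM in Slit1 and 1.11 TPM in vector, with Itgam listed at 0 in vector. Of 7 tested markers of myelinating oligodendrocytes, 7 were at least 1.5-fold higher, and the list of 8 summed to 3728 TPM in Slit1 and 836 TPM in vector. In bulk RNA, fewer cells of a type and less RNA per cell cannot be told apart, and a chromatin gene can come from any of the cells in the culture.

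No difference below has a replicate check or a p-value, since each group is a single library. Each TPM ratio, Slit1 over vector, is given with a 95% interval that covers counting error only. A gene was tested, in the sense of being compared, when its mean over both libraries was at least 1 TPM, which held for 64 of the 66 genes and 13175 of all genes. Differences are of log2(TPM + 1), Slit1 minus vector, and a gene is called higher or lower at 1.5-fold on that scale.

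Most chromatin genes had similar levels in both libraries. Of the 64, 1 gene, Hdac11, was at least 1.5-fold higher, beside 3.72% of all tested genes, and 0 were at least 1.5-fold lower, beside 4.83% of all tested genes. Under a narrower limit, at least 25% higher or, as the same fold downwards, 20% lower, 55 of the 64 lay within it, against 71.3% of all tested genes. Beyond it, 3 were higher (Hdac11, Chd3 and Ezh2), beside 10.7% of all tested genes. Another 6 were lower (Chd1, Tet2, Kdm5a, Kdm6a, Kdm7a and Smarca2), beside 17.9% of all tested genes. Above 0 lay 35 of the 64, against 43.7% of all tested genes. The median difference was 0.01, and that of all tested genes was -0.05. At these depths, 20 members had a counting interval above 1 and 18 below 1, beside 22.3% above and 33.5% below among all tested genes, so small differences in these 2 libraries exceeded counting error in both directions.

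**Figure D1:**
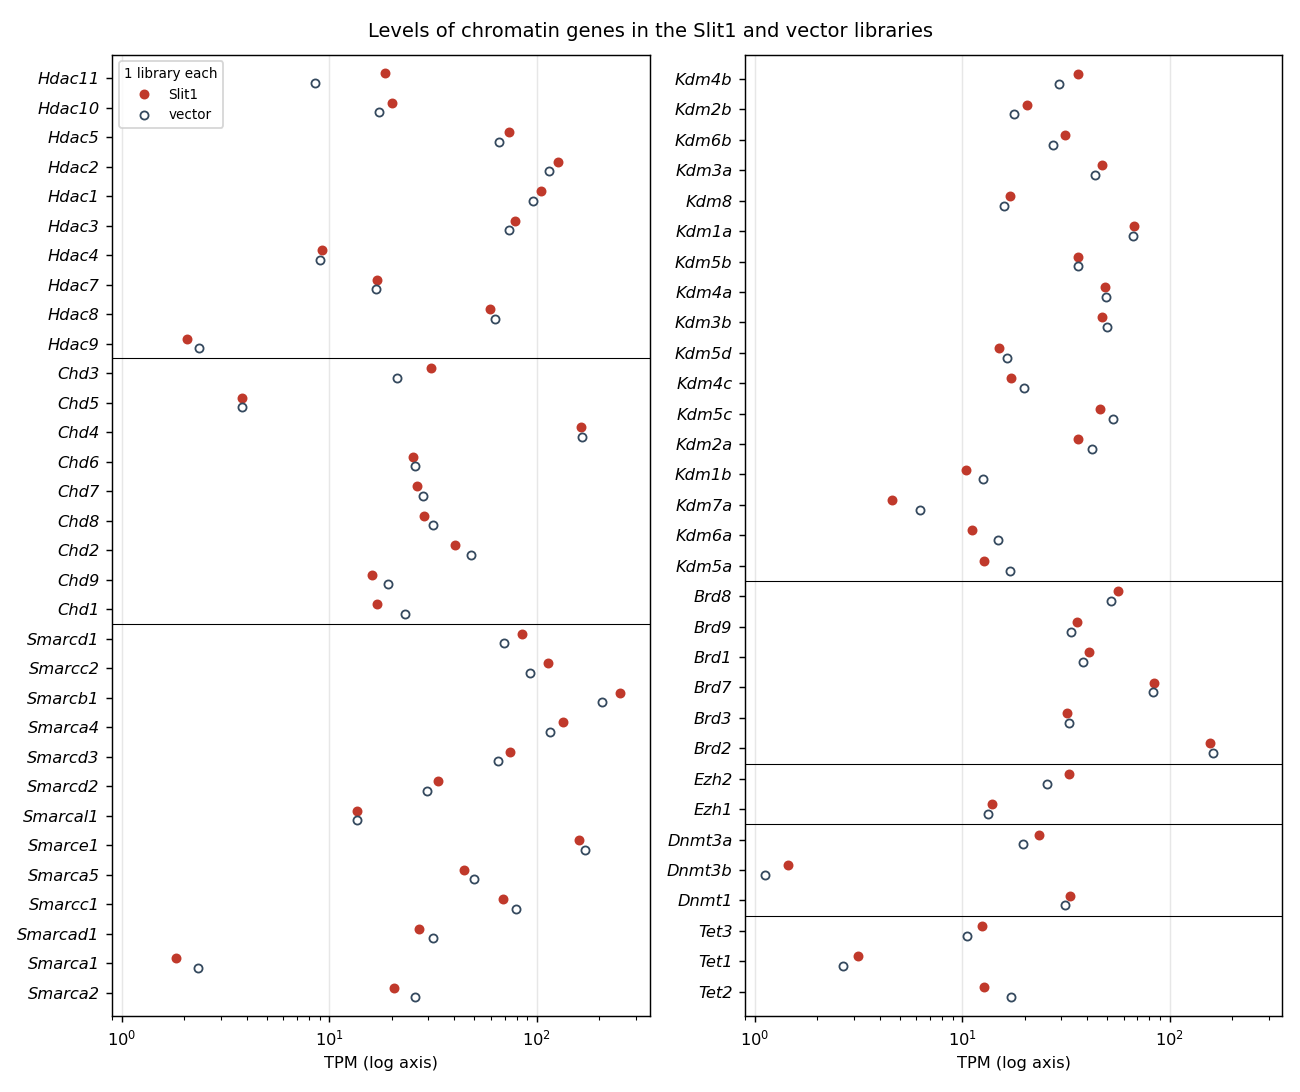
Level of 63 of the 64 tested chromatin genes in TPM (log axis), by family, with the Slit1 library as filled points and the vector library as open points (1 library each, no error bars). Levels run from 1.12 TPM (Dnmt3b in vector) to 252 TPM (Smarcb1 in Slit1), and Hdac11 has the widest gap between its points.

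The genes differed far more from each other in level than between libraries. The median member measured 32.6 TPM in Slit1 and 30.5 TPM in vector, against 25.4 and 26.1 TPM for the median tested gene in Slit1 and vector. The 8 most abundant, at a mean of 100 TPM or more, were Smarcb1, Smarce1, Chd4, Brd2, Smarca4, Hdac2, Smarcc2 and Hdac1. The 5 scarcest tested members, under 5 TPM, were Hdac9, Chd5, Smarca1, Dnmt3b and Tet1. Not tested were Kdm4d, with 0.82 TPM in Slit1 and 1.07 TPM in vector, and Dnmt3l, the catalytically inactive partner of the de novo methyltransferases, with 1 count in Slit1 and 0 in vector.

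Transcript length bore on these values. Among all tested genes the median difference ran from 0.08 in the shortest of 20 length bins to -0.18 in the longest, and 52 of the 64 chromatin genes were longer than the median tested gene (median effective length 4561 bases, against 2561 bases for all tested genes). A length-adjusted difference, in which the trend of all tested genes with length is subtracted, is therefore given for most members and drawn for the named ones in the plot of differences by family. After that adjustment the members' median was 0.13, against 0.01 for all tested genes, and 45 of 64 lay above 0, against 51.0% of all tested genes. Higher by at least 1.5-fold were then 2 members (Hdac11 and Chd3), beside 4.23% of all tested genes, and lower were 0, beside 3.66%. Past the narrower limit 11 were higher, beside 12.6% of all tested genes, and 0 were lower, beside 13.2%, with 74.2% of all tested genes within it. In the longest genes, above 4067 bases, 14 of 38 members lay above 0 without adjustment, and 30.2% of the 3294 genes of that length did. The median of these 38 members was -0.05 and that of all genes of that length was -0.14. Among genes up to 2561 bases, 10 of 12 members lay above 0, with a median of 0.11 against 0.01 for all genes of that length.

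**Figure D2:**
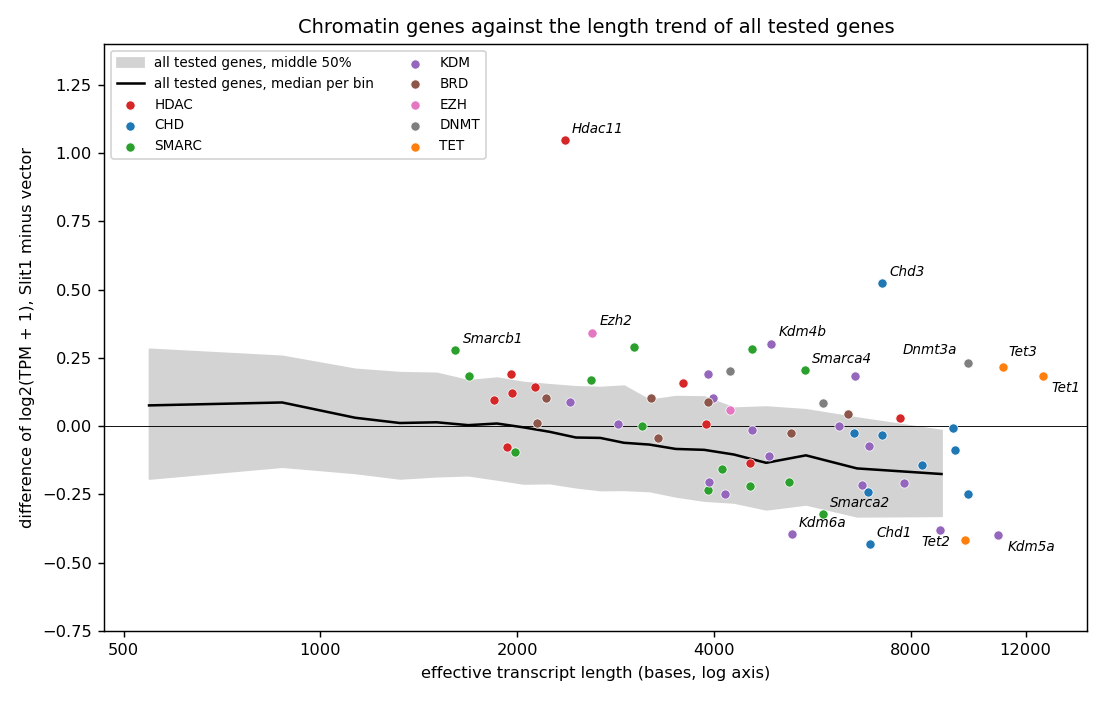
Difference of log2(TPM + 1), Slit1 minus vector, against effective transcript length in bases (log axis). Coloured points are the 64 chromatin genes by family; the black line is the median and the grey band the middle 50% of all tested genes in 20 length bins. The line runs from 0.08 to -0.18, while Chd3 lies above the band at 0.52 and Chd1 below it at -0.43.

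The upstream sequences of some members that differed in either direction are shown here, since CpG dinucleotides (in capitals) are the substrate of the DNMT and TET enzymes described below. Hdac11, Chd1 and Tet2, whose differences were wider, are not among the genes shown. Chd3 and Kdm4b were the highest, and Smarca2 and Kdm5a the lowest, of the 22 tested members with a single listed start lying within 200 bases of the annotated gene end. Each is the 250 bases before the start, 5′ to 3′ on the strand of the gene, from RefSeq on build GRCr8 (Chd3 chr10:54588811-54589060 on the - strand, Kdm4b chr9:1245653-1245902 on the + strand, Smarca2 chr1:233617121-233617370 on the + strand, Kdm5a chr4:155237874-155238123 on the + strand).
Chd3: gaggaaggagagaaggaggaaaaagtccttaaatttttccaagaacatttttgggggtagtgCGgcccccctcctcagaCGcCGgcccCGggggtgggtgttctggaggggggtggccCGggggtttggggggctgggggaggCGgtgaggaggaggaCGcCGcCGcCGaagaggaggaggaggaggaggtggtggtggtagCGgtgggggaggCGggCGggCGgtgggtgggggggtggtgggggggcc
Kdm4b: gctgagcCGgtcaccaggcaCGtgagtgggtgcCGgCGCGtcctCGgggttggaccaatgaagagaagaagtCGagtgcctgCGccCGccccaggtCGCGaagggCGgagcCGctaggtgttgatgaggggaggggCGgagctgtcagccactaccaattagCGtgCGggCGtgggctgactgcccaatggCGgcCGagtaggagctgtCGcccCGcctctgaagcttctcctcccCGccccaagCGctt
Smarca2: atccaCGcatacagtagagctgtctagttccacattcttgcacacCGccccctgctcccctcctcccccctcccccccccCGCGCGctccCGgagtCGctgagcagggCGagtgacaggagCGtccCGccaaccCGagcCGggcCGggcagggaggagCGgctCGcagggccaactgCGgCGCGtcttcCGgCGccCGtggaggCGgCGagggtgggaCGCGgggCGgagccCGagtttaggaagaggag
Kdm5a: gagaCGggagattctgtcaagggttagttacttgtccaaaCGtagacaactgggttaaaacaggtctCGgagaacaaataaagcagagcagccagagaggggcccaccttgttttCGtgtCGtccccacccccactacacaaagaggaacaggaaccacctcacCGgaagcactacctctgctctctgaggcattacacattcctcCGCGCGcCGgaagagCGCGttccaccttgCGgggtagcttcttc

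The windows held 14 CpGs in Chd3 and 23 in Kdm4b, and 27 in Smarca2 and 13 in Kdm5a. Whether CpG number goes with the differences was not tested. The table held 81 windows for 57 of the 66 members, with a median of 16 CpGs and 59.3% of them CpG-rich (at least 50% G or C and at least 0.6 of the CpGs that base composition would give). Windows of all tested genes had a median of 16 CpGs and were CpG-rich in 61.3%, and all windows of the table had a median of 5 and were CpG-rich in 29.3%.

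Among the deacetylases, Hdac11 stood apart. Hdac11, the sole class IV enzyme, known as a deacylase and studied in rodent oligodendrocytes, measured 18.7 TPM (397 counts) in Slit1 and 8.51 TPM (174 counts) in vector. The ratio was 2.19 (interval 1.83 to 2.64), the whole interval lay beyond 1.5-fold, and the length-adjusted difference was 1.09. Myelin genes were higher too: Mbp, which encodes myelin basic protein, was 7.73-fold higher (1704 TPM in Slit1 and 220.5 TPM in vector) and the list of myelinating oligodendrocyte markers had a median difference of 2.22. The part of the myelin genes or of the cell mixture in the Hdac11 difference was not tested.

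The class I deacetylases lay within the narrower limit. Hdac1 and Hdac2 are the catalytic subunits of the NuRD, Sin3 and CoREST corepressors. Hdac1 measured 105 TPM (1854 counts) in Slit1 and 96.4 TPM (1634 counts) in vector (ratio 1.09, interval 1.02 to 1.17), and Hdac2 measured 126.7 TPM (2427 counts) in Slit1 and 114.8 TPM (2112 counts) in vector (ratio 1.10, interval 1.04 to 1.17). Hdac3, the enzyme of the NCoR complex, measured 78.5 TPM (1313 counts) in Slit1 and 73.4 TPM (1156 counts) in vector (ratio 1.07, interval 0.987 to 1.16). Hdac8 was the class I member below 0, at 59.7 TPM in Slit1 and 63.0 TPM in vector (ratio 0.948, interval 0.869 to 1.03). In the class IIa group, whose proteins shuttle between nucleus and cytoplasm, Hdac5 was higher by more than counting error (73.8 TPM in Slit1 and 66.1 TPM in vector, ratio 1.12, interval 1.05 to 1.19). Hdac4 measured 9.25 TPM in Slit1 and 9.03 TPM in vector, and Hdac7 measured 16.99 TPM in Slit1 and 16.9 TPM in vector. The intervals of Hdac4, Hdac7 and Hdac9 held 1, Hdac9 being the lowest of the family at 2.07 TPM (85 counts) in Slit1 and 2.37 TPM (93 counts) in vector (ratio 0.873, interval 0.643 to 1.18). Hdac10, a class IIb enzyme that acts on polyamines, had a ratio of 1.15 (interval 0.980 to 1.34). Hdac6, the tubulin deacetylase, is listed under an identifier only and so is not among the 66; it measured 29.8 TPM in Slit1 and 33.3 TPM in vector (ratio 0.896, interval 0.823 to 0.975). After length adjustment the difference was 0.24 for Hdac5, 0.20 for Hdac4 and -0.02 for Hdac9. Of the 10 members 8 lay above 0, against 43.7% of all tested genes, and the family median of 0.11 ranged from 0.10 to 0.17 over the 10 alternative scales and filters.

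**Figure D3:**
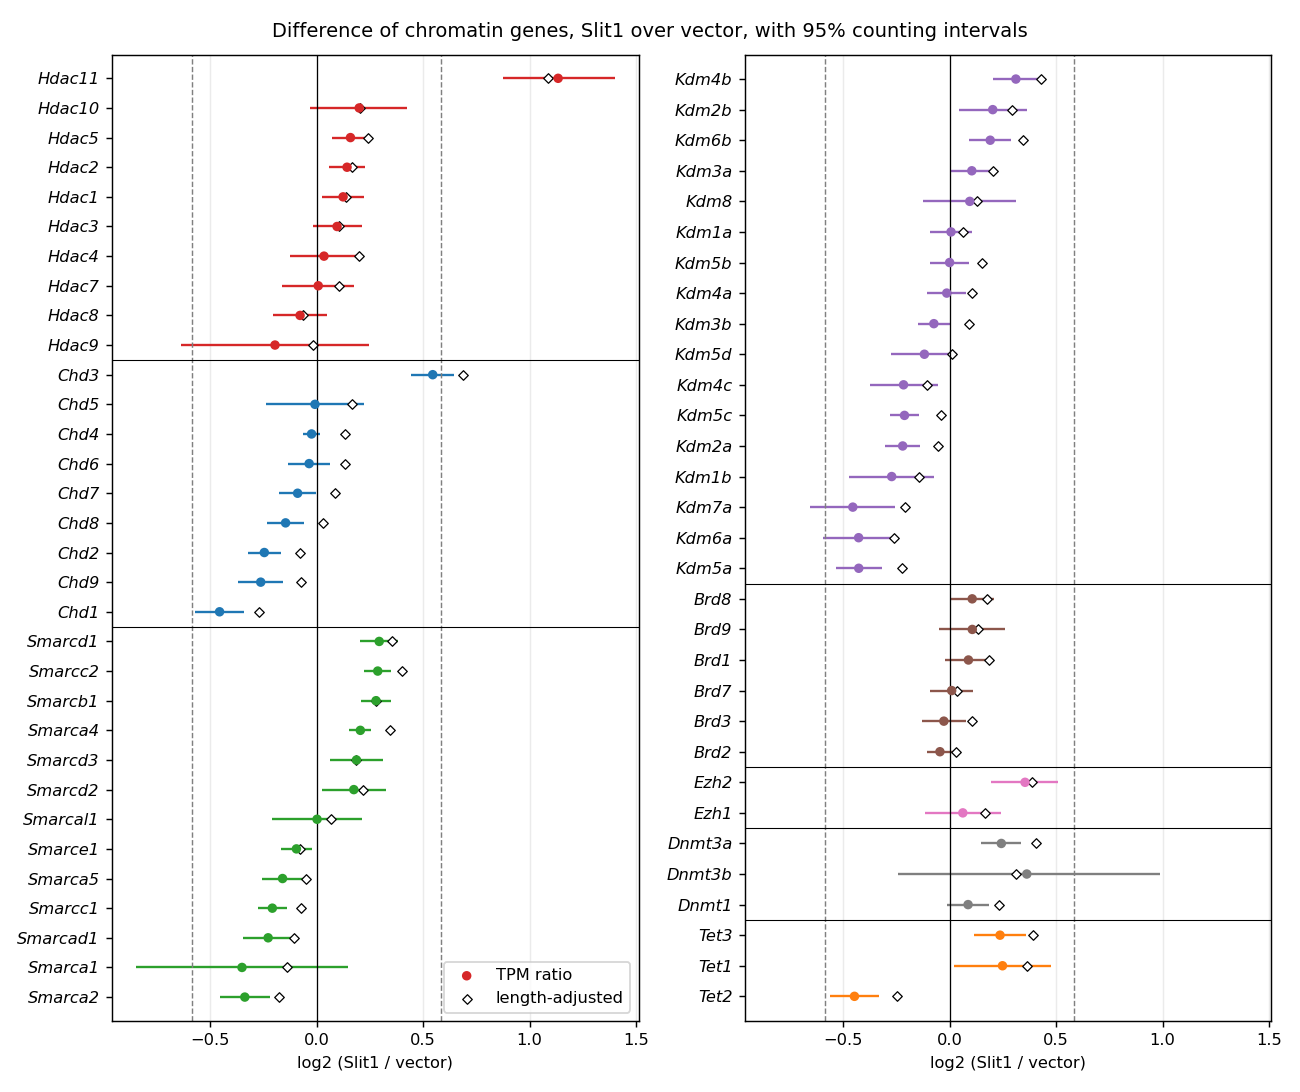
log2 ratio of TPM, Slit1 over vector, for 63 of the 64 tested chromatin genes by family; filled points are TPM ratios with 95% counting intervals as lines, open diamonds are length-adjusted differences of log2(TPM + 1), and dashed lines mark 1.5-fold. Hdac11 lies beyond the upper line and Chd3 next to it, and the points nearest the lower line are Chd1, Kdm7a and Tet2.

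Of the 9 CHD remodelers, 1 lay above 0, Chd3, against 43.7% of all tested genes. Chd3, an ATPase of the NuRD deacetylase complex, measured 30.9 TPM (2017 counts) in Slit1 and 21.2 TPM (1327 counts) in vector. Its ratio was 1.46 (interval 1.36 to 1.57), just below the limit of 1.5, and its length-adjusted difference of 0.69 lay beyond it (1.5-fold is 0.58 on the log2 scale). Chd4, the main NuRD ATPase here, measured 163 TPM in Slit1 and 166 TPM in vector (ratio 0.984, interval 0.956 to 1.01), and Chd5, a relative abundant in neurons, measured 3.80 TPM in Slit1 and 3.82 TPM in vector. Chd3 thus made up 15.6% of the summed TPM of Chd3, Chd4 and Chd5 in Slit1 and 11.1% in vector. Chd3 overlaps Naa38 on GRCr8, which has fewer counts (484 in Slit1 and 443 in vector). The summed counts of the pair, mostly those of Chd3, had a ratio of 1.3995 (interval 1.32 to 1.49) as CPM (counts scaled to the library total).

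The group I remodelers Chd1 and Chd2, which act on transcribed genes, both lay below 0, as did Chd6, Chd7, Chd8 and Chd9. Chd1 measured 16.9 TPM (1082 counts) in Slit1 and 23.2 TPM (1355 counts) in vector, 1.37-fold lower (interval 1.26 to 1.49), and stayed below 0 after length adjustment (-0.27). Chd1 overlaps an unnamed locus of few counts (15.8 in Slit1 and 19.5 in vector). The sum of both as CPM, nearly all of it Chd1, had a ratio of 0.791 (interval 0.730 to 0.857). The like value for Chd1 alone is its ratio of counts, 0.798, and not its TPM ratio, since its effective length was 5.12% larger in Slit1. Chd2 measured 40.6 TPM in Slit1 and 48.1 TPM in vector, 1.19-fold lower (interval 1.123 to 1.251), with a difference of -0.24 that was -0.08 after length adjustment. Chd7, the gene mutated in CHARGE syndrome, measured 26.5 TPM (2250 counts) in Slit1 and 28.2 TPM (2261 counts) in vector (ratio 0.940, interval 0.886 to 0.997), and its relative Chd8 measured 28.7 TPM (2150 counts) in Slit1 and 31.8 TPM (2287 counts) in vector (ratio 0.904, interval 0.852 to 0.959). Both turned above 0 with length adjustment, at 0.09 for Chd7 and 0.03 for Chd8, as did Chd4, Chd5 and Chd6. Chd6 measured 25.2 TPM in Slit1 and 25.9 TPM in vector. Chd9 lay below 0 (16.1 TPM in Slit1 and 19.3 TPM in vector, ratio 0.834, interval 0.776 to 0.896), with a difference of -0.25 that was -0.07 after length adjustment. The family median was -0.09 as plain difference and 0.09 after length adjustment.

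The BAF complex genes differed in direction. Smarca4 (BRG1), the main BAF ATPase, measured 133 TPM (6628 counts) in Slit1 and 115.7 TPM (5516 counts) in vector, a ratio of 1.15 (interval 1.11 to 1.20). Its alternative, Smarca2 (BRM), measured 20.6 TPM (1090 counts) in Slit1 and 26.02 TPM (1322 counts) in vector, 1.26-fold lower (interval 1.16 to 1.37). The Smarca4 share of their summed TPM was 86.6% in Slit1 and 81.6% in vector, and the ratio of Smarca4 to Smarca2 was 1.46 times as large in Slit1 (interval 1.33 to 1.59). Their transcripts are close in length (5517 and 5878 bases), and the gap was 0.52 after length adjustment and 0.53 before. The adjusted difference was 0.34 for Smarca4 and -0.18 for Smarca2.

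The scaffold subunits Smarcc2 (BAF170) and Smarcc1 (BAF155) parted in the same way. Smarcc2 measured 113 TPM in Slit1 and 92.9 TPM in vector (ratio 1.22, interval 1.17 to 1.27), while Smarcc1 measured 68.7 TPM in Slit1 and 79.3 TPM in vector (1.15-fold lower, interval 1.10 to 1.21). Smarcc2 held 62.3% of the pair in Slit1 and 53.9% in vector. After length adjustment the difference was 0.40 for Smarcc2 and -0.07 for Smarcc1, against -0.20 for Smarcc1 before. The core subunit Smarcb1 was the most abundant member, at 252 TPM in Slit1 and 207.7 TPM in vector (ratio 1.21, interval 1.16 to 1.27). Smarcd1 (BAF60A), the highest of the SMARC genes by difference, measured 85.0 TPM (2310 counts) in Slit1 and 69.4 TPM (1811 counts) in vector. The BAF60 genes all lay above 0, against 43.7% of all tested genes. The ratio was 1.23 for Smarcd1 (interval 1.152 to 1.304), 1.14 for Smarcd3 (interval 1.04 to 1.24) and 1.13 for Smarcd2 (interval 1.017 to 1.253). Their shares among the 3 were within 2 percentage points between libraries. Smarce1, which carries an HMG box, measured 159.5 TPM in Slit1 and 170 TPM in vector (ratio 0.936, interval 0.889 to 0.987). It has 11 annotated pseudogenes in RefSeq, 0 of them listed in the table, so reads could be shared with them. Smarcd3 overlaps Chpf2, and the summed counts of that pair did not differ beyond counting error (ratio 0.990, interval 0.939 to 1.04). Smarcb1 overlaps Derl3, which has few counts beside it (265 in Slit1 and 201 in vector). Their sum, mostly Smarcb1, had a ratio of 1.26 (interval 1.20 to 1.32).

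Outside BAF, the ISWI ATPases were below 0. Smarca5 (SNF2H) measured 44.6 TPM in Slit1 and 49.9 TPM in vector (ratio 0.895, interval 0.836 to 0.957), and Smarca1 (SNF2L) rested on 67 counts in Slit1 and 75 in vector (ratio 0.784, interval 0.556 to 1.11). Smarcad1, a remodeler of replicated and silent chromatin, measured 27 TPM in Slit1 and 31.6 TPM in vector, 1.17-fold lower (interval 1.08 to 1.27). The fork-remodeling helicase Smarcal1 measured 13.6 TPM in both libraries (ratio 1.001, interval 0.866 to 1.16). Length adjustment brought Smarca5 to -0.05, Smarca1 to -0.14 and Smarcad1 to -0.10, against differences of -0.16 for Smarca5, -0.24 for Smarca1 and -0.22 for Smarcad1 before. Over the 13 SMARC genes, 7 lay above 0 both before and after length adjustment, against 43.7% and 51.0% of all tested genes.

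Of the 17 tested lysine demethylases, 7 lay above 0, against 43.7% of all tested genes, and 10 did after length adjustment, against 51.0%. The H3K27 demethylases went opposite ways. Kdm6b (JMJD3) measured 31.3 TPM (1874 counts) in Slit1 and 27.4 TPM (1545 counts) in vector (ratio 1.14, interval 1.07 to 1.22). Kdm6a (UTX) measured 11.1 TPM (531 counts) in Slit1 and 14.96 TPM (675 counts) in vector (1.34-fold lower, interval 1.20 to 1.51). Together they summed to 42.4 TPM in each library, an equality of unadjusted TPM only. Of that sum Kdm6b held 73.8% in Slit1 and 64.7% in vector. After length adjustment the difference was 0.34 for Kdm6b and -0.26 for Kdm6a, against 0.18 for Kdm6b and -0.40 for Kdm6a before.

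Of the H3K4 demethylases of the KDM5 group, Kdm5a was lower, at 12.7 TPM (1243 counts) in Slit1 and 17.1 TPM (1605 counts) in vector (1.34-fold, interval 1.247 to 1.449). Kdm5a overlaps Ccdc77, which has fewer counts (407 in Slit1 and 399 in vector). Their summed counts, mostly those of Kdm5a, had a ratio of 0.815 as CPM (interval 0.764 to 0.871). Kdm5c was 1.16-fold lower (interval 1.10 to 1.21), its Y-linked homologue Kdm5d had a ratio of 0.921 (interval 0.826 to 1.03), and Kdm5b measured 36.2 TPM in both libraries. The counts of Kdm5c had a ratio of 0.943, nearer to 1 than its TPM, and its effective length was 4.90% larger in Slit1. The KDM5 transcripts are long, and after length adjustment the difference was -0.22 for Kdm5a, -0.04 for Kdm5c, 0.01 for Kdm5d and 0.15 for Kdm5b. Before it the difference was -0.40 for Kdm5a, -0.21 for Kdm5c and -0.11 for Kdm5d, so Kdm5c and Kdm5d lay near the trend for their length. The amine oxidase Kdm1a (LSD1), a subunit of CoREST, measured 67.2 TPM in Slit1 and 66.9 TPM in vector (ratio 1.005, interval 0.939 to 1.08), and Kdm1b was 1.21-fold lower (interval 1.05 to 1.39), with a difference of -0.25 that was -0.14 after length adjustment.

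Among demethylases of H3K9, Kdm4b was the highest of the family, at 36.3 TPM (1594 counts) in Slit1 and 29.2 TPM (1239 counts) in vector (ratio 1.24, interval 1.15 to 1.34). Kdm4c was 1.16-fold lower (interval 1.039 to 1.297), and Kdm4a measured 49.1 TPM in Slit1 and 49.5 TPM in vector (ratio 0.991, interval 0.931 to 1.05). Kdm7a, which also acts on H3K27, measured 4.57 TPM in Slit1 and 6.26 TPM in vector (1.37-fold lower, interval 1.19 to 1.58). Kdm3a had a ratio of 1.08 (interval 1.002 to 1.15), and the interval of Kdm3b held 1 (ratio 0.9503, interval 0.903 to 1.0003). Kdm2b, which brings a variant Polycomb complex to CpG islands, had a ratio of 1.15 (interval 1.03 to 1.29), and its relative Kdm2a was 1.16-fold lower (interval 1.10 to 1.23). The difference of Kdm2a was -0.21 before length adjustment and -0.05 after it, while Kdm2b stood at 0.29. Kdm8 had a ratio of 1.07 (interval 0.918 to 1.24). Among the H3K9 enzymes the adjusted difference was 0.43 for Kdm4b, -0.11 for Kdm4c, -0.21 for Kdm7a, 0.20 for Kdm3a, 0.10 for Kdm4a and 0.09 for Kdm3b, the last 2 having been below 0 before.

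The bromodomain genes lay close to 0. All 7 lay within the narrower limit, from Brd8, of the TIP60 acetyltransferase complex (56.2 TPM (1616 counts) in Slit1 and 52.2 TPM (1447 counts) in vector, ratio 1.08, interval 1.002 to 1.16), to Brd2 (157 TPM (4555 counts) in Slit1 and 162 TPM (4663 counts) in vector, ratio 0.969, interval 0.930 to 1.01). Brd3, a BET protein like Brd2, measured 32.2 TPM in Slit1 and 32.8 TPM in vector, and Brd7, a subunit of the PBAF form of BAF, measured 84.2 TPM in Slit1 and 83.65 TPM in vector. The intervals of Brd1, Brd3, Brd7 and Brd9 held 1. Length adjustment placed all 7 above 0, against 51.0% of all tested genes, with Brd2 at 0.03, Brd3 at 0.11 and Brd8 at 0.17.

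Of the Polycomb methyltransferases, Ezh2, the enzyme of dividing progenitors, measured 32.9 TPM (769 counts) in Slit1 and 25.8 TPM (583 counts) in vector, a ratio of 1.28 (interval 1.15 to 1.42). Ezh1, the form of resting cells, measured 13.96 TPM (532 counts) in Slit1 and 13.4 TPM (489 counts) in vector (ratio 1.04, interval 0.923 to 1.18). Proliferation genes lay in the same direction as Ezh2: 13 of 14 lay above 0, against 43.7% of all tested genes. Of the 14, 1 was at least 1.5-fold higher, beside 3.72% of all tested genes. The proliferation genes summed to 593 TPM in Slit1 and 502 TPM in vector. Their part in the Ezh2 difference was not tested. Ezh2 also overlaps Cul1, which has more counts (2778 in Slit1 and 3380 in vector), and the summed counts were lower (ratio 0.887, interval 0.847 to 0.928). How the counting treated strand was not given in the sources used here, so reads of the overlap cannot be assigned to either gene.

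The 3 tested DNA methyltransferases all lay above 0, against 43.7% of all tested genes, and the intervals of Dnmt1 and Dnmt3b held 1. Dnmt3a, the main de novo enzyme here, measured 23.4 TPM (2041 counts) in Slit1 and 19.7 TPM (1681 counts) in vector (ratio 1.18, interval 1.11 to 1.26). Dnmt1, which copies methylation after replication, measured 33.2 TPM (1751 counts) in Slit1 and 31.2 TPM (1584 counts) in vector (ratio 1.06, interval 0.992 to 1.14). Dnmt3b, the other de novo enzyme, rested on few counts, 55 counts in Slit1 and 41 in vector (ratio 1.29, interval 0.845 to 1.98). After length adjustment the difference was 0.41 for Dnmt3a, 0.23 for Dnmt1 and 0.31 for Dnmt3b, and 0.39 for Ezh2 and 0.17 for Ezh1.

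The TET dioxygenases split. Tet2 measured 12.7 TPM (1104 counts) in Slit1 and 17.3 TPM (1448 counts) in vector, 1.36-fold lower (interval 1.26 to 1.48). Tet3 measured 12.4 TPM (1237 counts) in Slit1 and 10.5 TPM (1010 counts) in vector, a ratio of 1.18 (interval 1.08 to 1.28). Tet1, the scarcest, had a ratio of 1.19 (interval 1.01 to 1.39) at 3.16 TPM (364 counts) in Slit1 and 2.66 TPM (292 counts) in vector. Tet2 made up 44.9% of their summed TPM in Slit1 and 56.7% in vector, Tet3 43.9% in Slit1 and 34.5% in vector. All 3 transcripts are long (9678 bases for Tet2 and 11078 for Tet3), and the gap between Tet3 and Tet2 was 0.64 both before and after length adjustment. The adjusted difference was 0.39 for Tet3, 0.36 for Tet1 and -0.24 for Tet2.

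Relatives within a library can be set against each other without any scaling between libraries. Where their lengths differ, as for Kdm5b and Kdm5a (length ratio 0.571), the length trend is not removed. Over 19 pairs of related genes, chosen with their values known and so given as a description, the within-library ratio differed between libraries beyond counting error in 15 and was at least 25% larger or 20% smaller in 10. The share over other pairs of genes was not computed. Of all tested genes taken alone, 22.3% had a counting interval above 1 and 33.5% below 1. Of the 19 pairs, the widest after Hdac11 to Hdac8 (2.32 times as large in Slit1, interval 1.90 to 2.82) were Tet1 to Tet2 (1.62, interval 1.36 to 1.92), Tet3 to Tet2 (1.61, interval 1.43 to 1.80), Kdm6b to Kdm6a (1.53, interval 1.34 to 1.75) and Chd3 to Chd4 (1.48, interval 1.376 to 1.598). Pairs whose intervals held 1 were Hdac1 to Hdac2 (0.987, interval 0.904 to 1.08), Chd7 to Chd8 (1.04, interval 0.957 to 1.13), Smarcd1 to Smarcd3 and Smarca5 to Smarca1.

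**Figure D4:**
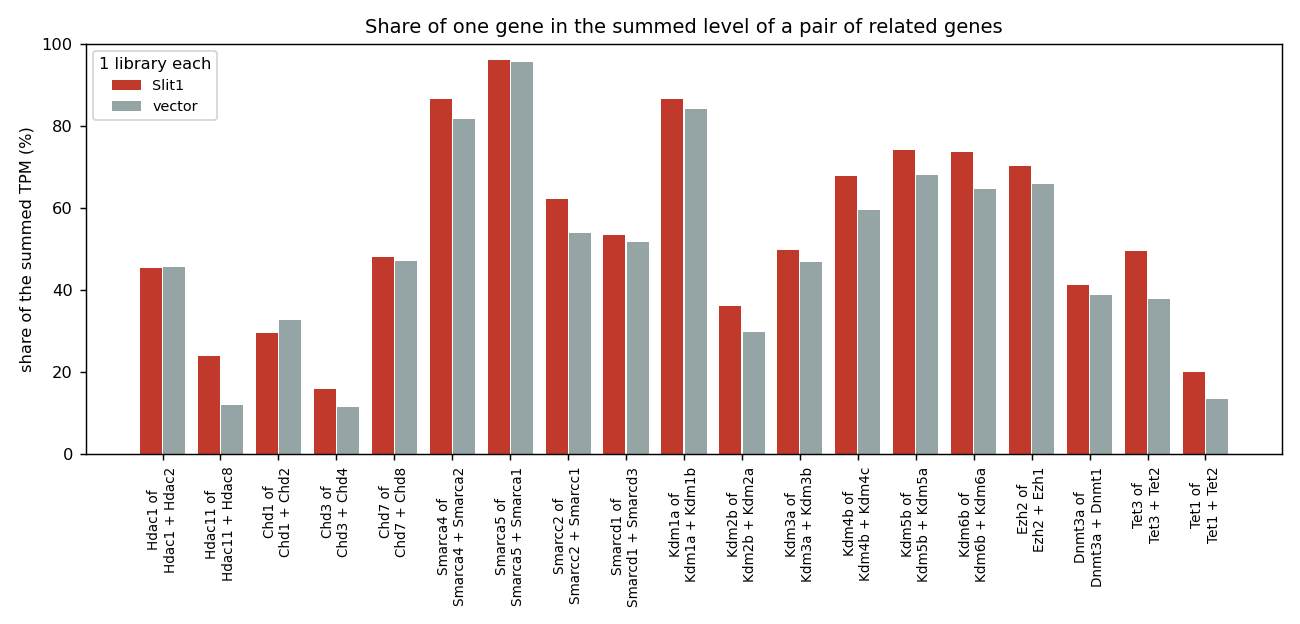
Share of the first gene in the summed TPM of each of 19 pairs of related chromatin genes, in percent, with the Slit1 library in red and the vector library in grey (1 library each, no error bars). Hdac1 to Hdac2 stands at 45.3% in Slit1 and 45.7% in vector, while Kdm6b, Smarcc2 and Tet3 hold larger shares of their pairs in Slit1.

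The other genes of the same complexes and enzyme classes were examined as 9 lists with 180 different genes, of which 178 were tested. Of these, 3 were at least 1.5-fold higher, beside 3.72% of all tested genes, and 3 lower, beside 4.83%. The median of the 178 was -0.03, against -0.05 for all tested genes. It was above 0 under every other scaling and after length adjustment (0.07, against 0.01 for all tested genes). The widest difference was that of Sirt2, a deacetylase that is abundant in oligodendrocytes and found in myelin: 1448 TPM in Slit1 and 535.6 TPM in vector, 2.70-fold higher (interval 2.64 to 2.77). The other higher genes were Hr, a jumonji corepressor of nuclear receptors (72.6 TPM in Slit1 and 44.5 TPM in vector, 1.63-fold, interval 1.54 to 1.72), and Rcor2, a CoREST subunit (35.7 TPM in Slit1 and 22.8 TPM in vector, 1.56-fold, interval 1.397 to 1.753). As with Hdac11, the part of the myelin genes in these differences was not tested.

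The lower genes rested on fewer counts. Setd7, a lysine methyltransferase, measured 6.30 TPM (109 counts) in Slit1 and 13.35 TPM (223 counts) in vector, 2.12-fold lower (interval 1.69 to 2.70). Pcgf3, a subunit of a variant Polycomb complex, was 1.68-fold lower (interval 1.33 to 2.13), and Zbtb38, a zinc finger protein that binds methylated DNA, 1.66-fold lower (interval 1.33 to 2.10). After length adjustment Zbtb38 stood at -0.51, within 1.5-fold, and 2 of the 178 were lower past it, beside 3.66% of all tested genes. By list, the medians ran from -0.08 over 25 ISWI and INO80 subunits to 0.06 over 19 BAF subunits outside Smarc. In the lists of 11 histone acetyltransferases, 19 BAF subunits and 25 ISWI and INO80 subunits, 0 genes reached 1.5-fold in either direction. Of all tested genes, 3.72% were higher and 4.83% lower, so lists this short would hold few such genes. The acetyltransferases had a median of -0.04, the 31 histone methyltransferases -0.02, the 28 Polycomb subunits 0.03, the 24 corepressor subunits -0.01, the 7 sirtuins -0.06, the 12 DNA methylation readers -0.05 and the 22 other jumonji and bromodomain genes -0.06.

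**Figure D5:**
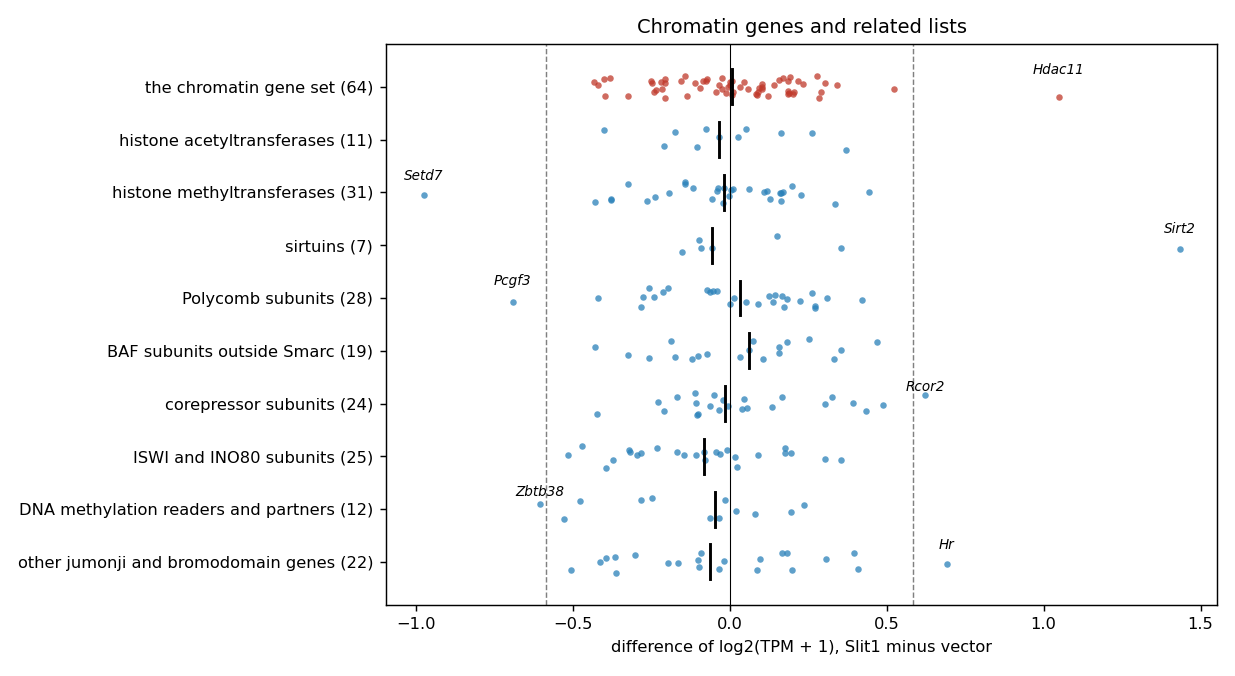
Difference of log2(TPM + 1), Slit1 minus vector, of each tested gene in the chromatin gene set (red) and in 9 lists of related genes (blue), with the number tested in parentheses; black bars are medians and dashed lines mark 1.5-fold. Hdac11, Sirt2, Hr and Rcor2 lie beyond the upper line, and Setd7, Pcgf3 and Zbtb38 beyond the lower.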

How the data were processed

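The authors deposited 1 table of 17455 genes with FPKM, TPM and read counts for 2 libraries, per the file headers. The deposited TPM values sum to 1000000 per library, and the deposited FPKM values sum to 473673 in Slit1 and 459452 in vector. The deposited read counts are estimated counts that need not be whole; they were rounded for intervals. Per the submitters' processing notes the genome build was mRatBN7.2. Aligner, counter, annotation and strand setting were not given in the sources used here.

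Effective length was computed as count over FPKM, scaled by the column total, and averaged over libraries. Differences used a pseudocount of 1 TPM, which understates the change of low genes, and a floor of 1 TPM. The length trend was a lowess fit (span 0.3, statsmodels 0.14.6) of the difference on log2 length over all 13175 tested genes. Ratio intervals are exact (Clopper-Pearson) at 95% for 2 Poisson counts (scipy 1.17.1), and those of within-library ratios are normal on the log scale; both cover counting error only. A count of 0 allows up to 3 counts, worth 0.130 TPM in Slit1 and 0.135 TPM in vector at the median length. TMM factors came from edgeR 4.0.16. Gene names, overlaps and upstream sequences came from RefSeq on GRCr8, matched by gene number (66 of 66 members), and no coordinates were converted. The calculations were tested on simulated data.

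Every member is named except 1, which enters the counts and medians and whose values are not reported here. Full values are given for members beyond 1.5-fold, for the highest and lowest of each family and for a list of genes studied in the lineage, Tet3 and Kdm6b among them. The members, lists, pairs and thresholds were chosen with earlier results of these data known. Alternatives were other pseudocounts, floors, fold limits and scalings, and removal of the length trend by lowess or by bin.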

Additional observations from a re-analysis of the deposited data

How the results depend on the processing

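Among the chromatin genes, the count at least 1.5-fold higher was 1 and became 2 with edgeR TMM factors on CPM, with the length trend subtracted and with the length bin median subtracted; with the narrower limit (25% higher or 20% lower) it was 3. The count lower was 0 under every scaling and filter tried and 6 with the narrower limit. The members' median of 0.01 became 0.13 with the length trend and 0.12 with the length bin median subtracted. Of 635 member values under 10 alternatives, 560 stayed within the counting interval of the TPM ratio. A floor does not change a member's value, so 64 values with no floor and 59 with a floor of 5 TPM stayed by construction. With the length trend subtracted 31 of 64 values left the interval, and with the length bin median subtracted 31 did. Over all alternatives 53 of 64 members kept their sign (35 higher, 18 lower). Chd4, Chd5, Chd6, Chd7, Chd8, Brd2, Brd3, Hdac9, Kdm3b, Kdm4a and Kdm5d did not. The median of the related genes, -0.03, was above 0 on 6 scales: 0.021 on CPM with edgeR TMM factors, 0.011 on CPM, 0.011 on FPKM, 0.014 after centring on the median gene, 0.065 with the length trend subtracted and 0.061 with the length bin median subtracted. The median of all tested genes also differed by scale. It was -0.047 on TPM, 0.0005 on CPM with edgeR TMM factors, -0.008 on CPM and -0.006 on FPKM. The related genes lay above it by 0.014 on TPM, 0.021 with edgeR TMM factors, 0.019 on CPM and 0.016 on FPKM. Of the 178 related genes, the 3 higher became 18 with the narrower limit, beside 10.7% of all tested genes, and 1 at 2-fold, beside 1.24%. The 3 lower became 24 with the narrower limit, beside 17.9% of all tested genes, and 0 at 2-fold, beside 0.645%. They were 2 with a floor of 5 TPM, on FPKM, after centring on the median gene and under either removal of length. They were 4 with a pseudocount of 0.1 TPM and 1 with a pseudocount of 5 TPM. Where the whole counting interval had to lie beyond 1.5-fold, 1 was lower. The cause of these shifts in number was not tested. No paired analysis was possible because each group holds 1 library, and for the same reason no replicate could be left out. Depth limits Dnmt3b, Smarca1, Hdac9 and Kdm4d, whose intervals are the widest.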

Other observations

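The effective length of the chromatin genes differed by over 5% between libraries in 5 of them. Relative to vector, the length in Slit1 differed by -11.5% for Kdm5d, -6.06% for Kdm2b, -5.86% for Kdm3a, 10.03% for Smarca1 and 5.12% for Chd1. For these genes the ratio of counts and the ratio of TPM part: for Kdm5d the counts had a ratio of 0.8501 and the TPM a ratio of 0.921, and for Chd1 the counts had a ratio of 0.798 and the TPM a ratio of 0.729. Uty, the Y-linked relative of Kdm6a, measured 3.64 TPM in Slit1 and 5.58 TPM in vector (1.53-fold lower as a TPM ratio, interval 1.29 to 1.83). Hells, a remodeler needed for DNA methylation, measured 5.85 TPM in Slit1 and 8.78 TPM in vector (TPM ratio 0.666, interval 0.555 to 0.80). On the log2(TPM + 1) scale both lay within 1.5-fold, at -0.50 for Uty and -0.51 for Hells. After length adjustment Uty stood at -0.34 and Hells at -0.42. Both genes were chosen after their values were seen.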
